A study of Mus musculus with 36 samples.

Results

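The genes described here carry out autophagy or belong to the TFEB family of transcription factors, and they were chosen by name. Of 50 listed names, 49 were found as gene symbols in a liver count table of 38283 genes, and all 49 passed the filter on low counts. The remaining name, *Atg101*, was listed under an older symbol and was found only by its gene identifier, so it is reported separately and is in no count. Livers came from 36 male C57Bl/6J mice aged 16 weeks, wild-type or heterozygous for a truncating knock-in allele of *Pik3r1* (WT/Y657*), a model of SHORT syndrome. The allele was made in embryonic stem cells, so it is carried in every tissue and its effect is not limited to liver. Mice of both genotypes were kept on chow and were fed ad libitum, deprived of food for 16 h (fasted), or given chow again for 6 h after such a fast (refed), with 6 mice in each of the 6 groups. The wild-type mice were littermates. Each library held the RNA of 1 mouse, and the labels do not say how litters were spread over groups.

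Autophagy encloses cytoplasm in a double membrane, the phagophore, which closes into an autophagosome and fuses with lysosomes. The ULK kinase complex starts the process, a class III PI3-kinase marks the membrane with its lipid, lipid transfer proteins and scramblases enlarge it, and a pair of ubiquitin-like conjugation systems attach ATG8 proteins, which cargo receptors bind. In liver it supplies amino acids, lipids and glucose precursors between meals. TFEB and its relatives TFE3, MITF and TFEC switch on lysosomal and autophagy genes when nutrient signalling through mTORC1 is low. Insulin, acting through PI3-kinase and AKT, raises mTORC1 signalling and restrains FOXO-dependent steps. Most of this control acts on proteins, which were not measured here.

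Total counts per mouse ranged from 8839488 to 19542775 with a median of 13596665.5. *Pik3r1* itself was at 74.5 to 182 CPM (counts scaled to a common library size by TMM) over all mice and was not called between genotypes in any state, with adjusted p-values from 0.423 to 0.886 (edgeR). Reads of both alleles are summed, so this level does not check the genotype labels. The 6 hepatocyte markers summed to 49800 to 101000 CPM over all mice, and both skeletal muscle markers had medians at or near 0. All fed mice carried numbers from a middle series, whereas those of the fasted and refed groups belonged to a lower and an upper series, so in comparisons with fed mice the effects of feeding state and number series cannot be told apart. Fasted and refed groups each held 3 mice of either series, and with the series as a covariate the refeeding response had 21 calls among the 49 genes for wild-type mice and 20 for WT/Y657* mice, against 21 and 18 without it. The library index nearly followed feeding state in all groups, so those effects cannot be told apart. In whole liver, fewer cells of a type and less RNA per cell cannot be told apart either.

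Levels of different genes were compared as CPM per kilobase of annotated exon. The most abundant were *Gabarapl1*, an ATG8 family member, at 141 over the 36 mice, the cargo receptor *Sqstm1* (p62) at 132 and the mitophagy receptor *Bnip3* at 92.9. The TFEB family lay at the other end on the same scale, with *Tfe3* at 2.32, *Tfeb* at 1.31, *Mitf* at 0.927 and *Tfec* at 0.355. *Mitf* and *Tfec* were the lowest of the 50 genes. Within a group the coefficient of variation of a gene's CPM lay between 1.53% and 49.4% (median 9.53%).

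TFEB family proteins bind the E-box word CACGTG, and their preferred site, the CLEAR element, extends it. RefSeq promoter windows on GRCm38 were held for 42 of the 50 genes, 54 windows in all, and a gene counted if any of its windows matched. Over the 250 bases before the start site of each window, searched on both strands, CACGTG (a palindrome) lay in 4 of these 42 genes (9.52%) and in 6.86% of 27025 genes. The longer word GTCACGTG lay in 2 of the 42 (4.76%) and in 2.11% of all genes, and TCACGTGA in 1 (2.38%) and in 0.907%. The full CLEAR palindrome, TCACGTGA with a G before and a C after it, lay in 0 of the 42 and in 0.27% of all genes. The forkhead word GTAAACA was found in 3.54% of all genes and in 0 of the 42. Each match is a run of letters in a reference window, and binding was not measured. The 4 windows are shown with CACGTG in capitals because they place the E-box in genes whose transcripts are followed below, and in *Atg3* it occurs at both 94 and 71 bases before the start. They lie at chr16:45158710-45158788 (plus strand) for *Atg3*, chr6:114670939-114670994 (plus strand) for *Atg7*, chr10:44268300-44268338 (plus strand) for *Atg5* and chr7:138909584-138909639 (minus strand) for *Bnip3*. The *Atg7* window lies inside the annotated gene, which begins at chr6:114643097, so it precedes a start downstream of the first.
Atg3: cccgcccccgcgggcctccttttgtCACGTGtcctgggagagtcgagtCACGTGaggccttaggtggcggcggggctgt
Atg7: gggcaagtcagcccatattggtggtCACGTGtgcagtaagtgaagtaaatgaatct
Atg5: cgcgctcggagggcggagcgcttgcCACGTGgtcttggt
Bnip3: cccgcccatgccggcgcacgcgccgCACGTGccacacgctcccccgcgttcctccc

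Feeding state moved many of the 49 genes in both directions, and genotype moved fewer, almost all of them after the fast. In wild-type mice 15 of 49 (30.6%) rose on fasting and 10 (20.4%) fell, where 14.5% of all 13945 genes tested rose and 17.5% fell. In WT/Y657* mice 16 (32.7%) rose and 14 (28.6%) fell on fasting, against 15.2% and 17.7% of all genes. On refeeding, 6 (12.2%) rose and 15 (30.6%) fell in wild-type mice (16.5% and 13.7% of all genes), and 5 (10.2%) rose and 13 (26.5%) fell in WT/Y657* mice (17.1% and 14.2%). In both genotypes the shares of these genes that rose and that fell on fasting, and that fell on refeeding, were above those of all genes, and the share that rose on refeeding was below it. Median absolute log2 changes on refeeding were 0.138 (wild-type) and 0.169 (WT/Y657*), smaller than the 0.242 and 0.247 of all genes. On fasting they were 0.276 and 0.308, against 0.248 and 0.249. Of the 49 genes, 48 had at least 10 counts in every library. Among all genes with such counts, 36.5% were called on refeeding in wild-type mice, against 30.2% of all genes tested. The larger shares called therefore need not mean larger changes. Scaling by library size alone in place of TMM gave 10 that rose and 15 that fell on fasting, and 9 and 10 on refeeding, in WT/Y657* mice.

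Between genotypes, 6 of 49 genes were higher and 5 lower in fasted WT/Y657* than in fasted wild-type mice, against 6.43% and 6.63% of all genes (7 and 3 with library size alone). In fed mice 0 were higher and 1 was lower (1.21% and 1.15% of all genes). At an unadjusted p under 0.05 were 9 of 49, and 2423 of all 13945 genes. With library size alone 2 were higher and 0 lower. In refed mice 0 were called by edgeR (higher, 0.0215% of all genes, and lower, 0.00717%) and 0 by DESeq2. At an unadjusted p under 0.05 were 3 of 49, and 1329 of all 13945 genes. The fasting response itself differed between genotypes for 7 genes, 4 with a more positive and 3 with a more negative response in WT/Y657* mice (2.59% and 1.76% of all genes, and 2 and 4 genes with library size alone). Fed mice enter this difference, and among them genotype nearly follows mouse number, so those effects cannot be told apart there. The refeeding response differed for 3, all more negative (1.46% of all genes, and 0.595% more positive). The comparison of fasted mice and both differences of response share the 12 fasted mice, so they are not separate evidence. Of the 49 genes, 10 were called in none of the 9 comparisons: *Atg14*, *Atg4b*, *Atg4c*, *Becn1*, *Fundc1*, *Mitf*, *Tax1bp1*, *Tecpr1*, *Tfe3* and *Tfec*.

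**Figure D1:**
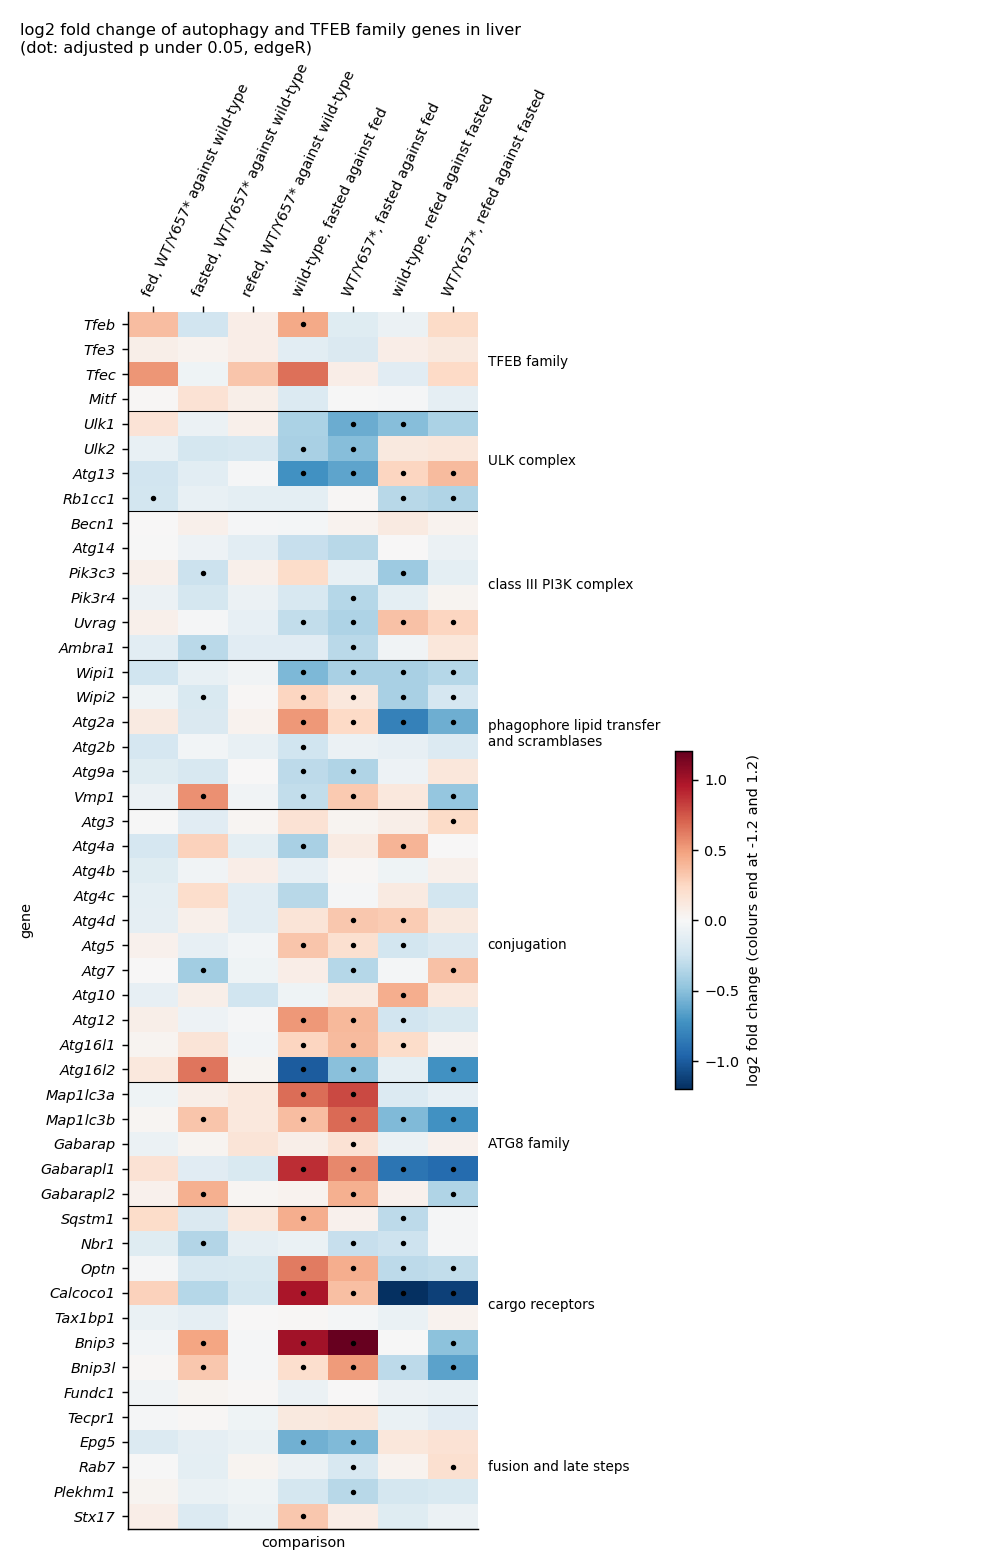
Rows are 49 genes grouped by role and columns are 7 comparisons. Colour gives the log2 fold change (red higher, blue lower in the group named first) and a dot marks an adjusted p under 0.05 by edgeR, with 25 dots for wild-type fasting, 30 for WT/Y657* fasting and 0 for genotype in refed mice.

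*Tfeb*, the family member best known as master regulator of lysosomal genes, was at 5.6 to 6.36 CPM in fed wild-type mice (median 6) and at 7.27 to 10.5 in fasted wild-type mice (median 7.72). For WT/Y657* mice the range was 6.09 to 9.15 in the fed state (median 7.73) and at 5.33 to 8.54 after the fast (median 6.81). After refeeding it was at 6.04 to 9.89 in wild-type and 5.78 to 9.17 in WT/Y657* mice, with medians of 7.2 and 8.6. Every fasted wild-type mouse thus lay above every fed one, whereas the fed and fasted WT/Y657* mice overlapped. The rise on fasting in wild-type mice was 0.45 on the log2 scale (standard error 0.14, edgeR adjusted p = 0.00955). In WT/Y657* mice the difference was -0.15 (standard error 0.13, adjusted p = 0.417). The 2 responses differed by -0.60 (standard error 0.19), which did not pass edgeR's adjustment (adjusted p = 0.0611) and passed that of DESeq2 (adjusted p = 0.0423). Fed WT/Y657* mice had a difference of 0.37 from fed wild-type mice (standard error 0.13, edgeR adjusted p = 0.121).

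*Tfe3*, which acts beside TFEB in liver and muscle, was the most abundant of the family per kilobase and lay between 16.7 and 25.5 CPM in all 36 mice. Its group medians ran from 19.7 in both fasted groups to 23.6 in fed WT/Y657* mice, and all groups overlapped. No comparison called it, and the largest difference was -0.17 for fasting in WT/Y657* mice, with a 95% interval of -0.35 to 0.01. *Mitf*, the melanocyte regulator of the family, was at 3.7 to 7.63 CPM with group medians from 5.03 to 6.56, and its genotype differences were 0.01, 0.17 and 0.07 in fed, fasted and refed mice. The 95% interval of the fasted difference was -0.13 to 0.47.

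*Tfec*, which is expressed in macrophages, was the lowest and most variable of the family. It was at 0.653 to 1.88 CPM in fed wild-type and 0.78 to 3.28 in fed WT/Y657* mice, with medians of 1.32 and 1.61. After the fast it was at 1.45 to 3.65 and 1.26 to 2.57, with medians of 1.87 and 2.17, and after refeeding at 1.28 to 2.99 and 1.68 to 3.21, with medians of 1.91 and 2.56. The genotypes overlapped in every state. The fed genotype difference was 0.53 (95% interval -0.05 to 1.11) and the fasting response of wild-type mice 0.66 (edgeR adjusted p = 0.0853). The 6 Kupffer cell and macrophage markers summed to 230 to 322 CPM in fed wild-type and 216 to 765 in fed WT/Y657* mice, none of them at 0, and their part in the *Tfec* values was not tested. Over the 36 tests of the family, 1 was called by edgeR, 4 had an unadjusted p under 0.05 and 2 were called by DESeq2. Of all 13945 genes, 1329 (refed genotypes) to 5819 (WT/Y657* fasting) had an unadjusted p under 0.05 in a comparison.

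**Figure D2:**
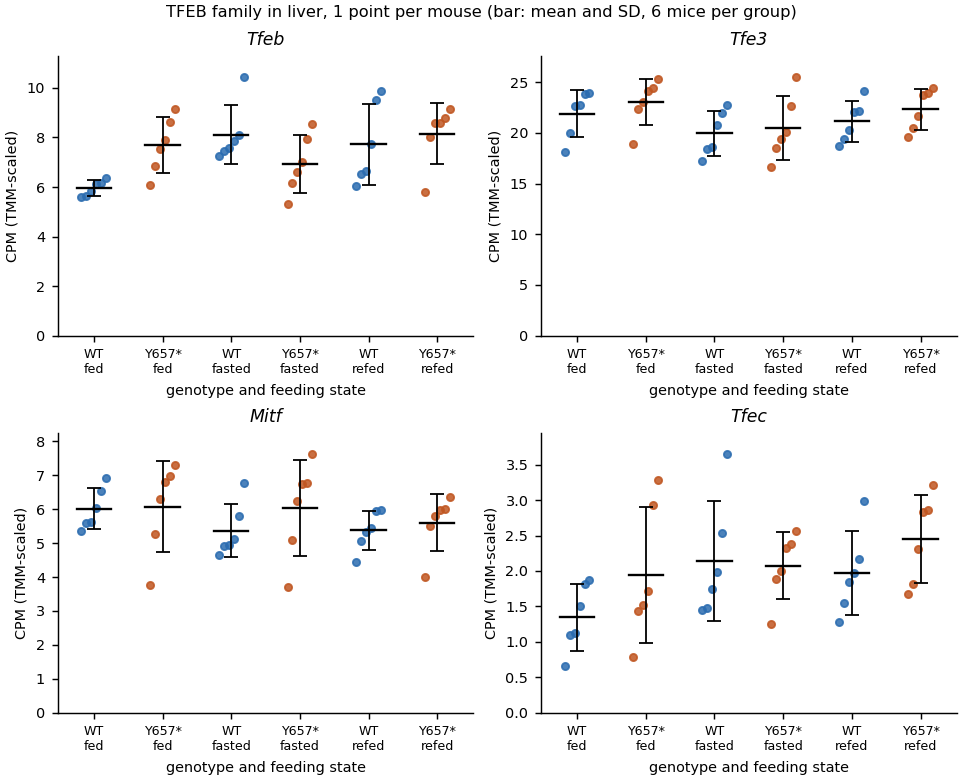
Each point is 1 mouse (blue wild-type, orange WT/Y657*), the vertical axis is CPM scaled by TMM from 0, and bars give the mean and SD of 6 mice. *Tfeb* in fasted wild-type mice (7.27 to 10.5) lies above fed wild-type mice (5.6 to 6.36), and in the other 3 genes all groups within a panel overlap.

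A list of 23 genes that control TFEB or are its lysosomal targets was also counted by feeding state. In wild-type mice 9 of 23 (39.1%) rose and 0 fell on fasting, where 14.5% of all genes rose and 17.5% fell. On refeeding 0 rose and 11 (47.8%) fell in these mice, against 16.5% and 13.7%. On fasting of WT/Y657* mice 10 (43.5%) rose and 1 fell (15.2% and 17.7% of all genes), and on refeeding 1 rose and 9 (39.1%) fell (17.1% and 14.2%). *Psap*, the precursor of the saposins that help degrade sphingolipids, rose by 0.64 on fasting in wild-type mice (standard error 0.076, edgeR adjusted p = 2.52e-08). *Ctsa*, a protective lysosomal protease, fell by 0.38 on refeeding in wild-type mice (adjusted p = 2.27e-05), and *Fnip1*, a folliculin partner in nutrient sensing at the lysosome, fell by 0.62 in WT/Y657* mice (adjusted p = 4.64e-06). *Ppargc1a*, a coactivator of fasting metabolism, rose by 0.99 on fasting and fell by 1.17 on refeeding in WT/Y657* mice. Between fasted genotypes 1 of 23 (4.35%) was called, *Ctsa*, lower by 0.22, which is named because of this count. Among all genes 6.43% were higher and 6.63% lower there. Neither response differed between genotypes for any of the 23 by edgeR, where 4.35% (fasting) and 2.06% (refeeding) of all genes were called. At an unadjusted p under 0.05 were 2 and 1 of the 23, and 2664 and 2163 of all 13945 genes. DESeq2 called 1 and 0 of the 23.

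Of 4 genes of the ULK complex, 2 fell when wild-type mice were fasted and 3 when WT/Y657* mice were, and 0 rose (17.5% and 17.7% of all genes fell, and 14.5% and 15.2% rose). *Atg13*, the regulatory subunit, was at 34.7 to 39 CPM in fed and 19.6 to 24.4 in fasted wild-type mice, and at 28 to 38.4 and 18.2 to 25 in WT/Y657* mice, so fed and fasted mice did not overlap in either genotype. Medians were 37.5 and 22.5 in wild-type and 30.3 and 19.4 in WT/Y657* mice, and after refeeding 27.4 and 26.5. It fell by 0.73 on fasting in wild-type mice (standard error 0.084, edgeR adjusted p = 8.93e-09) and by 0.63 in WT/Y657* mice (adjusted p = 2.45e-07). On refeeding it rose by 0.26 and 0.38. The kinase *Ulk2* fell on fasting by 0.39 and 0.51, while *Ulk1* fell by 0.60 in WT/Y657* mice and had a difference of -0.38 in wild-type mice (adjusted p = 0.0912). The *Ulk1* responses differed by -0.23, which was not called (adjusted p = 0.652).

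*Rb1cc1* (FIP200), the scaffold of the complex, was at 72.4 to 85.4 CPM in fed wild-type mice (median 79.7) and at 62.5 to 76.4 in fed WT/Y657* mice (median 67.7). It was the one gene of the 49 called between fed genotypes, by -0.22 (standard error 0.061, edgeR adjusted p = 0.0443), although the groups overlapped. This call was lost under 5 of 8 alternatives and in 8 of 12 fits without 1 mouse. Among fed mice genotype nearly follows mouse number. Neighbouring numbers mix the genotypes in 1 run of 5 mice, 2 of them wild-type, and there the difference was -0.08. After the fast the medians were 74.6 and 69.3, and after refeeding 56.8 and 53.4. It fell on refeeding by 0.33 (wild-type) and 0.36 (WT/Y657*), with no overlap in either. With a correction for exon length both falls were 0.22 and were still called. *Atg101*, which stabilises ATG13, differed by -0.38 between fasted genotypes, lower in WT/Y657* mice (adjusted p = 0.00653) and fell on fasting in WT/Y657* mice by 0.33.

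Of 6 genes of the class III PI3-kinase complex, *Ambra1* and *Pik3c3* were lower in fasted WT/Y657* mice, where 6.63% of all genes were, and the *Pik3c3* call was lost under 6 of 9 alternatives. *Ambra1*, a positive regulator of the complex, was at 29.1 to 36.8 CPM in fasted wild-type mice (median 30.6) and at 20.3 to 28.9 in fasted WT/Y657* mice (median 25.1), without overlap. The difference was -0.32 (standard error 0.079, edgeR adjusted p = 0.00581). In fed mice the ranges were 30.6 to 36.7 and 28.9 to 37.9, and in refed mice 28.6 to 33.5 and 24.3 to 29.3, with medians of 35.5 and 31.3, and of 30.3 and 28.4. *Ambra1* fell on fasting in WT/Y657* mice by 0.32 and had a difference of -0.14 in wild-type mice (adjusted p = 0.193). *Pik3c3*, the catalytic subunit VPS34, was lower by 0.26 with an adjusted p of 0.0487, a call that 10 of the 12 fits leaving out 1 fasted mouse lost. *Uvrag*, which directs the complex to late steps, fell on fasting by 0.30 and 0.37 and rose on refeeding by 0.35 and 0.26. *Becn1*, the core subunit, lay between -0.02 and 0.11 in all 9 comparisons save the difference of refeeding responses (-0.08), and none was called.

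Of the 6 genes of phagophore growth, *Vmp1* carried the largest difference in fasting response between genotypes. *Vmp1* encodes an endoplasmic reticulum scramblase needed for phagophores to form. It was at 109 to 132 CPM in fed wild-type (median 118) and at 90.9 to 130 in fed WT/Y657* mice (median 117). After the fast it was at 85.2 to 116 in wild-type (median 95.1) and at 115 to 170 in WT/Y657* mice (median 138), so the groups met only at their edges. After refeeding it was at 93.7 to 127 and 90 to 116, with medians of 104 and 102, and the genotypes overlapped again. *Vmp1* fell on fasting by 0.30 in wild-type mice (standard error 0.094, edgeR adjusted p = 0.0121) and rose by 0.31 in WT/Y657* mice (adjusted p = 0.0101). The responses differed by 0.61 (standard error 0.13, adjusted p = 0.00664), and fasted WT/Y657* mice were higher by 0.55 (adjusted p = 0.000174). On refeeding it fell by 0.46 in WT/Y657* mice (adjusted p = 0.000235) and had a difference of 0.13 in wild-type mice, and these responses differed by -0.59 (adjusted p = 0.0148). The annotation places the microRNA gene *Mir21a* (chr11:86584067-86584158, GRCm38) inside *Vmp1* on the same strand. *Mir21a* has no row in the count table, and any part of its precursor in the *Vmp1* values was not tested.

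*Wipi2*, which reads the PI3P mark and recruits ATG16L1, was at 91.9 to 101 CPM in fed and 105 to 119 in fasted wild-type mice, with medians of 94.5 and 117. Levels of WT/Y657* mice were 89.1 to 97.6 and 91.8 to 112, with medians of 91.8 and 102. Its rise on fasting was 0.26 (wild-type) and 0.13 (WT/Y657*), and the fasted WT/Y657* mice were lower by 0.18 (standard error 0.051, edgeR adjusted p = 0.0162). After refeeding it was at 78.5 to 92.9 and 83.7 to 90.3, with medians of 88.4 and 88.7, a fall of 0.39 and 0.20.

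*Atg2a*, the lipid bridge from the endoplasmic reticulum to the phagophore, was at 47.2 to 61 CPM in fed, 69.5 to 86 in fasted and 38.7 to 49.8 in refed wild-type mice, with medians of 53.9, 77.1 and 44.4. The WT/Y657* mice were at 45.4 to 66.5, 59 to 75.1 and 39.9 to 50, with medians of 60.9, 71.6 and 46.6. In wild-type mice the fasted group overlapped neither of the other groups. The rise on fasting was 0.52 in wild-type mice (edgeR adjusted p = 6.7e-06) and by 0.24 in WT/Y657* mice (adjusted p = 0.0266), and fell on refeeding by 0.81 and 0.59. The scramblase *Atg9a* fell on fasting by 0.31 and 0.36. *Wipi1*, a relative of *Wipi2*, fell on fasting by 0.54 and 0.39 and again on refeeding by 0.39 and 0.34, so the paralogs moved in opposite directions on fasting and together on refeeding. The *Wipi1* refeeding call in WT/Y657* mice was lost under 2 of 9 alternatives and in 5 of 12 fits without 1 mouse.

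Of the 11 conjugation genes, 1 was higher (*Atg16l2*) and 1 lower (*Atg7*) in fasted WT/Y657* mice, 9.09% each, near the 6.43% and 6.63% of all genes. *Atg7*, the E1 enzyme shared by both conjugation systems, was at 43.7 to 49.1 CPM in fed, 44 to 53.6 in fasted and 40.1 to 53.1 in refed wild-type mice, with medians of 46.3, 48.6 and 48.5. Mice of the WT/Y657* genotype were at 38.5 to 50.6, 28.8 to 42.7 and 40.3 to 55, with medians of 47.6, 38.5 and 45.7. The fasted WT/Y657* mice therefore lay below every fasted wild-type mouse, and the genotypes overlapped in the other states. The fasted difference was -0.42 (standard error 0.088, edgeR adjusted p = 0.00151). *Atg7* fell on fasting by 0.34 and rose on refeeding by 0.35 in WT/Y657* mice, with differences of 0.08 and -0.02 in wild-type mice. The fasting responses differed by -0.42 (adjusted p = 0.0437), a call lost in 14 of 24 fits without 1 mouse, and the refeeding responses by 0.36 (adjusted p = 0.118). *Atg7* is 1 of the 4 genes with a CACGTG word shown above, in its case in a window inside the gene. *Atg3*, the E2 enzyme downstream of it with the word at a pair of sites, was called once, rising by 0.23 on refeeding in WT/Y657* mice. With a correction for exon length that rise was 0.16 and not called (edgeR adjusted p = 0.111).

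*Atg16l2*, a paralog of the conjugation scaffold *Atg16l1*, was at 9.25 to 16.7 CPM in fed, 4.77 to 7.44 in fasted and 4.66 to 8.76 in refed wild-type mice, with medians of 13, 6.54 and 5.42. For WT/Y657* mice the range was 11.9 to 15.9, 7.96 to 12.8 and 4.99 to 7, with medians of 14.3, 9.69 and 5.9. Fasted WT/Y657* mice lay above every fasted wild-type mouse and all but the highest lay below the fed mice of their genotype. It fell on fasting to 0.50 of the fed level in wild-type mice (edgeR adjusted p = 6.19e-07), which is a ratio and not a log2 change. In WT/Y657* mice it fell on fasting by 0.50 on the log2 scale, a smaller fall by estimate than that of wild-type mice. On refeeding it fell by 0.73 in WT/Y657* mice, with a difference of -0.12 in wild-type mice. The fasted genotype difference was 0.64 (standard error 0.14, adjusted p = 0.00246). The differences of the responses, 0.51 and -0.61, did not pass the adjustment (adjusted p = 0.134 and 0.113). *Atg16l1* rose on fasting by 0.26 and 0.38.

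*Atg12*, the ubiquitin-like modifier joined to ATG5, was at 24.8 to 30.7 CPM in fed and 36.8 to 42.5 in fasted wild-type mice, and at 24.5 to 32.1 and 33.6 to 43.7 in WT/Y657* mice, without overlap. Medians were 26.9, 39.3, 29.1 and 37.6 in that order, and 33.5 and 32.9 after refeeding in wild-type and WT/Y657* mice. It rose on fasting by 0.52 (edgeR adjusted p = 2.72e-07) and 0.39 (adjusted p = 3.83e-05), and its partner *Atg5* by 0.33 and 0.19. The *Atg5* call of 0.19 in WT/Y657* mice was lost under 4 of 8 alternatives and in 6 of 12 fits without 1 mouse. The ATG8 protease *Atg4a* fell on fasting by 0.39 in wild-type mice and had a difference of 0.10 in WT/Y657* mice. These responses differed by 0.49 with an adjusted p of 0.0497, which 20 of the 24 fits without 1 mouse lost. Its relatives *Atg4b* and *Atg4c* were called in none of the comparisons, and *Atg4d* rose by 0.32 on fasting in WT/Y657* mice and by 0.30 on refeeding in wild-type mice.

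All 5 ATG8 family transcripts rose on fasting in WT/Y657* mice and 3 of 5 did in wild-type mice, with no fall in either, where 15.2% and 14.5% of all genes rose. *Gabarapl1* was at 198 to 259 CPM in fed, 380 to 459 in fasted and 191 to 263 in refed wild-type mice, with medians of 223, 413 and 229. Levels of WT/Y657* mice were 204 to 315, 318 to 475 and 191 to 219, with medians of 247, 383 and 195. In both genotypes the fasted mice stood above all fed and refed mice of their genotype. The rise on fasting was 0.89 for wild-type (standard error 0.099, edgeR adjusted p = 5.59e-09) and 0.58 for WT/Y657* mice (adjusted p = 1.72e-05), and fell on refeeding by 0.88 and 0.92. *Map1lc3a* (LC3A) was at 23.7 to 28.4 and 22.5 to 28.1 CPM in fed wild-type and WT/Y657* mice, with medians of 25.1 and 24.3. It was at 36.3 to 43.6 and 36.5 to 45.6 after the fast (medians 41.3 and 43.7) and at 31.6 to 40.6 and 31.9 to 45.7 after refeeding (medians 37.5 and 42.1). It rose by 0.67 and 0.79 on fasting and was not called on refeeding (-0.16 and -0.10).

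*Map1lc3b* (LC3B), whose lipid-bound protein is the usual marker of autophagosomes, was at 57.9 to 68.1 CPM in fed and 72.9 to 85.6 in fasted wild-type mice, with medians of 62.1 and 81.2. The WT/Y657* mice were at 58.4 to 78.4 and 87.9 to 116, with medians of 61.1 and 101. Every fasted WT/Y657* mouse was thus above every fasted wild-type mouse. After refeeding it was at 52.3 to 60.7 and 54.4 to 71.8, with medians of 55.1 and 60.8. It was higher by 0.33 in fasted WT/Y657* mice (standard error 0.070, edgeR adjusted p = 0.00163). It rose on fasting by 0.37 and 0.68, and the difference of 0.31 between these responses missed edgeR's threshold (adjusted p = 0.0624) and passed that of DESeq2 (adjusted p = 0.0412). On refeeding it fell by 0.53 and 0.73.

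*Gabarapl2* (GATE-16), another ATG8 protein, was called on fasting and refeeding in WT/Y657* mice and in neither response of wild-type mice, and the differences of the responses were called too. It was at 52.2 to 61.2, 52.9 to 65.1 and 55.5 to 68.6 CPM in fed, fasted and refed wild-type mice, with medians of 57.5, 59.5 and 60.6. Mice of the WT/Y657* genotype were at 53.8 to 68.1, 72.5 to 85.7 and 53.9 to 71.1, with medians of 57.4, 80.4 and 61.5. The 6 fasted WT/Y657* mice were higher than the other 30 mice. The fasted genotype difference was 0.43 (standard error 0.073, edgeR adjusted p = 0.000139), the smallest p of the 49 genes in that comparison. The fasting response was 0.43 in WT/Y657* and 0.04 in wild-type mice, a difference of 0.39 (standard error 0.10, adjusted p = 0.0259). The refeeding response was -0.36 and 0.05, a difference of -0.41 (adjusted p = 0.0294) that 8 of 24 fits without 1 mouse lost. *Gabarap* rose on fasting by 0.17 in WT/Y657* mice, with 0.07 in wild-type mice, and that call was lost under 4 of 8 alternatives and in 5 of 12 fits without 1 mouse.

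**Figure D3:**
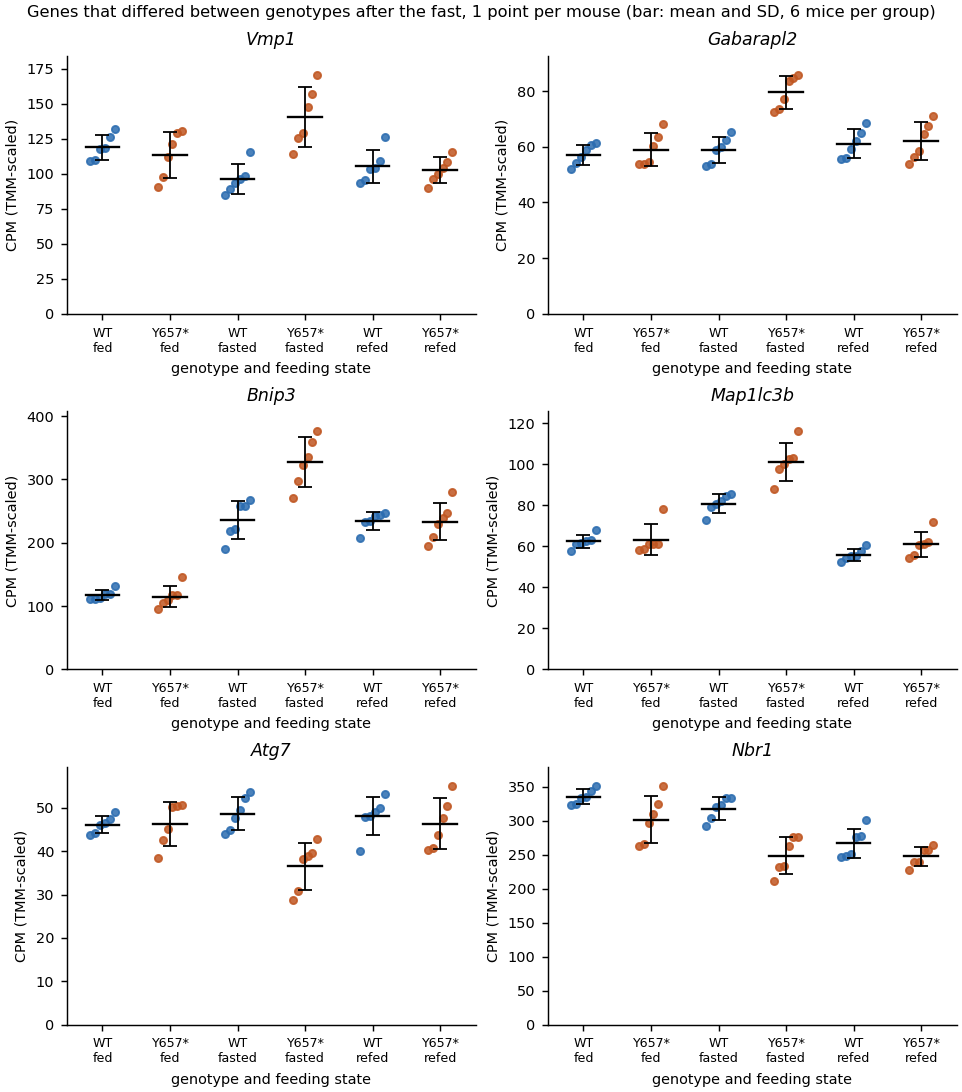
Each point is 1 mouse (blue wild-type, orange WT/Y657*), the vertical axis is CPM scaled by TMM from 0, and bars give the mean and SD of 6 mice. In the middle pair of groups, the fasted mice, *Gabarapl2*, *Bnip3* and *Map1lc3b* are higher and *Atg7* and *Nbr1* lower in all 6 WT/Y657* mice, and *Vmp1* is higher with its ranges meeting at 115 to 116.

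Of the 8 cargo receptors, *Bnip3* and *Bnip3l* were higher and *Nbr1* was lower in fasted WT/Y657* mice, and the other 5 were not called there (6.43% of all genes were higher and 6.63% lower). *Bnip3*, which tethers mitochondria to LC3 and is known as a target of HIF-1 and FOXO3, was at 110 to 131 CPM in fed, 190 to 267 in fasted and 208 to 248 in refed wild-type mice, with medians of 115, 240 and 238. For WT/Y657* mice the range was 95 to 145, 270 to 377 and 196 to 280, with medians of 113, 329 and 234. The fasted WT/Y657* mice lay above every fasted wild-type mouse, and refed and fasted wild-type mice overlapped. *Bnip3* rose on fasting 2.01-fold in wild-type mice (log2 1.01, standard error 0.094, edgeR adjusted p = 8.72e-11) and 2.85-fold in WT/Y657* mice (log2 1.51, adjusted p = 5.16e-15). These responses differed by 0.50 (standard error 0.13, adjusted p = 0.0226), and fasted WT/Y657* mice were higher by 0.47 (adjusted p = 0.000722). On refeeding it fell by 0.49 in WT/Y657* mice, with -0.005 in wild-type mice (95% interval -0.19 to 0.18), a difference of -0.48 (adjusted p = 0.0449) that 16 of 24 fits without 1 mouse lost. *Bnip3* is 1 of the 4 genes with a CACGTG word before its start.

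*Bnip3l* (NIX), the paralog of *Bnip3*, was at 57.3 to 69.4 CPM in fasted wild-type and 69.9 to 88.6 in fasted WT/Y657* mice, with medians of 61.3 and 76.7 and no overlap. In fed mice it was at 51.4 to 60.1 and 48.4 to 61.2 (medians 53.7 and 54.4), and in refed mice at 45.3 to 56.7 and 42.4 to 60.3 (medians 51 and 49.8). The fasted difference was 0.32 (standard error 0.078, edgeR adjusted p = 0.00521). Its fasting responses were 0.20 and 0.51, and their difference of 0.30 was not called (adjusted p = 0.108). A transcribed pseudogene, *Bnip3l-ps*, is annotated on chromosome 12 and is no row of the count table under that name, so reads shared with it are uncertain. *Fundc1*, another mitophagy receptor, lay within -0.09 and 0.08 in all comparisons and was not called.

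*Nbr1*, a receptor for ubiquitin-marked cargo, was at 323 to 351 CPM in fed, 292 to 334 in fasted and 247 to 301 in refed wild-type mice, with medians of 334, 322 and 263. Levels of WT/Y657* mice were 262 to 351, 211 to 277 and 228 to 264, with medians of 304, 248 and 248. The fasted genotypes did not overlap, and the difference was -0.35 (standard error 0.074, edgeR adjusted p = 0.00129). Its relative *Sqstm1* was at 342 to 414 CPM in fed, 493 to 524 in fasted and 367 to 463 in refed wild-type mice, with medians of 381, 515 and 409. The WT/Y657* mice were at 421 to 482, 412 to 491 and 391 to 534, with medians of 429, 453 and 441. Fed and fasted wild-type mice did not overlap, with a rise of 0.44 on fasting (adjusted p = 1.3e-05) and a fall of 0.31 on refeeding. In WT/Y657* mice the fasting difference was 0.05 (95% interval -0.09 to 0.20). The fasting responses differed by -0.39 (standard error 0.11, adjusted p = 0.0273). The genotype differences within a state, 0.22 in fed and -0.17 in fasted mice, were not called, although neither pair of groups overlapped.

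*Calcoco1*, a receptor for endoplasmic reticulum and Golgi cargo, was at 12.2 to 19.7 CPM in fed, 28.1 to 35.7 in fasted and 7.42 to 19 in refed wild-type mice, with medians of 16.2, 31.8 and 13. Mice of the WT/Y657* genotype were at 17.9 to 23.9, 22.4 to 28.5 and 9.15 to 13.1, with medians of 19, 25.7 and 12. Both genotypes peaked after the fast, and the WT/Y657* groups lay closer together. The rise on fasting was 0.98 for wild-type (standard error 0.13, edgeR adjusted p = 3.51e-07) and by 0.36 in WT/Y657* mice (adjusted p = 0.0357), a difference of -0.62 with an adjusted p of 0.0492 that 19 of the 24 fits without 1 mouse lost. Refeeding brought the largest falls of the 49 genes, 1.25 in wild-type mice (adjusted p = 5.73e-09) and 1.12 in WT/Y657* mice (adjusted p = 5.53e-08). *Optn*, a receptor for mitochondria and bacteria, rose on fasting by 0.62 and 0.44 and fell on refeeding by 0.31 and 0.30. *Tax1bp1* was not called.

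The 5 genes of fusion and late steps were not called between genotypes in any state. *Epg5*, a tether between autophagosome and lysosome, was at 59.5 to 84.2 CPM in fed and 45.6 to 56 in fasted wild-type mice, with medians of 76.4 and 48.9. For WT/Y657* mice the range was 51.2 to 81.6 and 41.3 to 53.8, with medians of 65.8 and 45. After refeeding it was at 48.1 to 57.2 and 48 to 56.2, with medians of 56.3 and 51.6. It fell on fasting by 0.58 in wild-type mice (standard error 0.088, edgeR adjusted p = 1.91e-06) and by 0.53 in WT/Y657* mice (adjusted p = 9.32e-06). The SNARE *Stx17* rose by 0.32 on fasting of wild-type mice, while *Rab7* (-0.19) and *Plekhm1* (-0.33), which act on late endosomes, fell in WT/Y657* mice. None of these 3 differed in response between genotypes (adjusted p from 0.188 to 0.717).

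**Figure D4:**
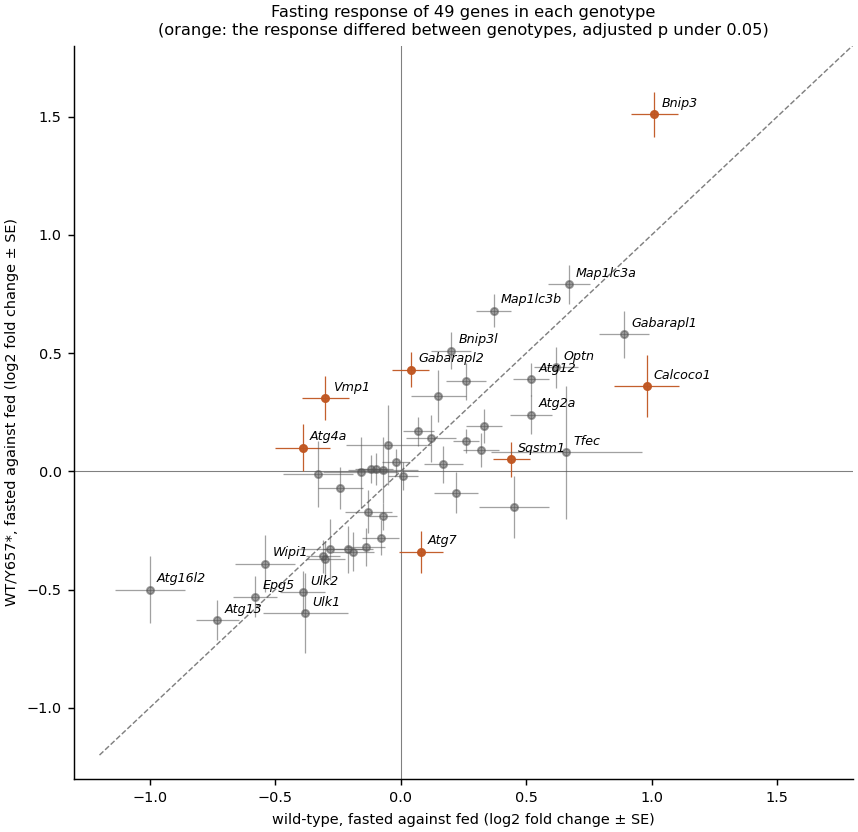
Each point is 1 of 49 genes, with its log2 fold change on fasting in wild-type mice on the horizontal and in WT/Y657* mice on the vertical axis, bars of 1 standard error and a dashed line of equal response. The 7 orange genes differed in response between genotypes, with *Vmp1* at -0.30 and 0.31 on opposite sides of 0 and *Bnip3* at 1.01 and 1.51.

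The 2 genotypes were fasted and fed as separate mice, so their calls can be set side by side. On fasting 12 genes rose in both, out of 15 (wild-type) and 16 (WT/Y657*), and 7 fell in both, out of 10 and 14. On refeeding 9 fell in both, out of 15 and 13, and 2 rose in both, out of 6 and 5. Within a genotype the fasting and refeeding comparisons share the fasted mice, so opposite signs in the 2 responses are not separate evidence. In wild-type mice 10 genes that rose on fasting fell on refeeding, and in WT/Y657* mice also 10. *Wipi1* fell in both steps in both genotypes. These shared counts were not taken over all genes, so they cannot be read as particular to the genes described here.

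The 11 genotype calls in fasted mice had the same sign in both mouse number series. The series divide the same mice that gave the calls, so the shared sign is not separate evidence. In the lower and upper series, each with 3 mice per genotype, the difference of mean log2 CPM was 0.48 and 0.60 for *Vmp1*, 0.54 and 0.33 for *Gabarapl2*, 0.57 and 0.38 for *Bnip3* and 0.43 and 0.22 for *Map1lc3b*. It was 0.57 and 0.69 for *Atg16l2* and 0.30 and 0.33 for *Bnip3l*. It was -0.54 and -0.31 for *Atg7*, -0.30 and -0.42 for *Nbr1*, -0.17 and -0.47 for *Ambra1*, -0.40 and -0.14 for *Pik3c3* and -0.17 and -0.19 for *Wipi2*. Of the 49 genes, 10 had fasted genotypes that did not overlap, 8 of them called, against 5.04% of all genes. Exon length moved with this comparison: over all genes, those with under 2595 bases had a median difference of 0.07 and those with over 6650 bases one of -0.02. The 6 higher genes had a median exon length of 3860 bases and the 5 lower genes 6871. With a correction for exon length the higher genes remained at 6, and 3 of the lower remained, with *Pik3c3* (adjusted p = 0.07) and *Wipi2* (adjusted p = 0.0518) not called. The trend was not limited to fasted genotypes: on refeeding of wild-type mice the medians of short and long genes were 0.11 and -0.08. On fasting of WT/Y657* mice, fold change and exon length had a Spearman correlation of -0.32 over the 49 genes. With the correction 23 (wild-type) and 30 (WT/Y657*) genes were called on fasting, against 25 and 30. On refeeding 23 and 17 were called, against 21 and 18. Summed stellate cell markers were at 305 to 368 CPM in fasted wild-type and 332 to 479 in fasted WT/Y657* mice and summed Kupffer cell markers at 269 to 493 and 273 to 461, with no marker at 0, and their part was not tested.

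Of 69 other genes of the pathway, taken from 3 lists of TFEB control and lysosomal targets, other autophagy genes and nutrient control, 21 rose and 7 fell on fasting in wild-type mice (14.5% and 17.5% of all genes), and 17 and 8 in WT/Y657* mice (15.2% and 17.7%). On refeeding 3 rose and 26 fell (16.5% and 13.7% of all genes), and 3 rose and 22 fell (17.1% and 14.2%). Between fasted genotypes 3 of 69 were higher and 6 lower, near the 6.43% and 6.63% of all genes. *Ppara*, the nuclear receptor that drives fatty acid oxidation and autophagy genes in fasting, differed by -0.55 between fasted genotypes, lower in WT/Y657* mice (standard error 0.10, edgeR adjusted p = 0.000328), without overlap. *Foxo3*, an insulin-restrained regulator of *Bnip3* and LC3 genes, was lower by 0.34 in fasted (adjusted p = 0.00793) and by 0.31 in fed WT/Y657* mice (adjusted p = 0.0458). *Creb1*, which acts on autophagy genes under glucagon, was higher by 0.27 (adjusted p = 0.00436), and *Rubcn*, an inhibitor of the class III PI3-kinase, was lower by 0.27 (adjusted p = 0.0104).

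On fasting, *Ppara* rose by 0.70 in wild-type mice (edgeR adjusted p = 7.32e-07), and the reticulophagy receptor *Tex264* by 0.51 and the WIPI relative *Wdr45* by 0.62 in the same mice. In WT/Y657* mice the autophagosomal SNARE *Vamp8* rose by 0.49 (adjusted p = 1.47e-06) and *Foxo3* fell by 0.58. Genes were picked here by p within each genotype, so being named for only that genotype marks no difference in response. *Tmem41b*, a scramblase that works with VMP1, fell on fasting by 0.67 in WT/Y657* mice and rose on refeeding by 0.70 (wild-type) and 0.75 (WT/Y657*). On refeeding *Vps18*, a subunit of the lysosomal tethering complexes, fell by 0.46 and the mitophagy receptor *Bcl2l13* by 0.67 in wild-type mice, and *Wdr45* fell by 0.53 in WT/Y657* mice. The genotype differences of the fasting and refeeding responses called 0 of the 69 by edgeR, against 4.35% and 2.06% of all genes. DESeq2 called 2 and 1 of the 69. At an unadjusted p under 0.05 were 10 and 8 of the 69, and 2664 and 2163 of all 13945 genes. In refed mice 0 were called between genotypes by either tool, with 7 at an unadjusted p under 0.05 (1329 of all 13945 genes).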

How the data were processed

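Liver RNA of 36 mice was made into stranded total RNA libraries and read with 50-base single reads on 1 HiSeq lane. For 38283 genes, the authors deposited unnormalized estimated counts of each mouse, of which 3.29% of values above 0 were not whole. Per the labels, Cuffdiff and featureCounts were used, with edgeR for testing, and the submitters' processing notes name mm9. The labels speak of counting on human genes, although the identifiers are those of mouse. Gene positions in the file lay within 1 kb of the GRCm38 start for 71.1% of the 36341 genes found in GENCODE M21, so coordinates and exon lengths are from GENCODE M21 on GRCm38. A second deposited table of fitted means was not used.

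After rounding, edgeR 4.0.16 (R 4.3.3) was used. The filterByExpr rule with 6 groups left 13945 genes, which were scaled by TMM, and fitted by robust glmQLFit with 1 coefficient per group over 36 mice. The 9 contrasts were tested two-sided by glmQLFTest, with Benjamini-Hochberg adjustment across the 13945 genes and a threshold of 0.05. Standard errors are the log2 fold change divided by the square root of F, and 95% intervals take 1.96 of them. "Rose", "fell", "higher" and "lower" are used of changes with an adjusted p under the threshold. CPM was taken over TMM-scaled library sizes. Each mouse is 1 animal, so p-values measure the spread between mice. The fit was tested on simulated data with known changes between fasted genotypes, in genes drawn from all those tested. It called 68.8% of genes changed by 1 on the log2 scale and 45.9% of those changed by 0.5. Of 114 calls 3 were false. A gene that was not called may therefore still differ.

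The genes, their roles and the other lists were chosen with earlier results of these data known. Values per group are given for the 4 TFEB family genes, for up to 12 genes called between genotypes and for the 6 genes of smallest p in each fasting and refeeding response; of the other pathway genes at most 4 called ones per comparison are named. Alternatives were edgeR's likelihood ratio test, DESeq2 1.42.0, RLE factors, library size alone, no filter, at least 10 counts in every library, only the groups compared, mouse number series as covariate and leaving out each mouse in turn. A correction for exon length by a smooth fit was chosen after seeing the data.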

Additional observations from a re-analysis of the deposited data

Results flagged for a closer look

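Single mice stood apart within their group for genes whose values are given above, in 10 of 138 sets of 6 mice tested by Dixon's criterion on CPM, where chance flags about 1 in 20. The same fed WT/Y657* mouse was high for *Map1lc3b* (78.4, next 61.2) and *Calcoco1* (23.9, next 19.7), and another fed mouse of that genotype for *Ambra1* (37.9, next 31.6). Among refed WT/Y657* mice, a different mouse each was low for *Ambra1* (24.3, next 27.4), *Wipi2* (83.7, next 88.2), *Tfeb* (5.78, next 8.01) and *Mitf* (3.99, next 5.5). Among wild-type mice, 1 refed mouse was high for *Atg16l2* (8.76, next 5.94), another refed mouse was low for *Epg5* (48.1, next 54.9) and 1 fasted mouse was high for *Tfeb* (10.5, next 8.1).

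The fasting response differed between genotypes by the interaction test of edgeR for *Vmp1* (0.61 on the log2 scale), *Bnip3* (0.50), *Atg4a* (0.49), *Gabarapl2* (0.39), *Sqstm1* (-0.39), *Atg7* (-0.42) and *Calcoco1* (-0.62). The refeeding response differed for *Vmp1* (-0.59), *Bnip3* (-0.48) and *Gabarapl2* (-0.41). The fasted mice enter both sets of values.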

How the results depend on the processing

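Over the 116 called results of single genes, 2493 alternative values were computed, of which 2240 kept direction and call, 253 kept direction and lost the call, and 0 changed direction. Every alternative and left-out mouse run for it kept 82 of the 116. The number of genes called between fed genotypes, 1 as reported, was 0 with the likelihood ratio test, the exon length correction, no filter on low counts or only the groups compared, and 2 with library size alone. Without a filter the differences of the fasting response fell from 7 to 3 and those of the refeeding response from 3 to 1; more genes were then tested. DESeq2 gave 9 and 4. Library size alone shifted the median of all genes by up to 0.10.

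Leaving out 1 mouse in turn gave 0 (without any of 5 wild-type or 3 WT/Y657* mice) to 2 (without 1 of the WT/Y657* mice) calls between fed genotypes, 9 to 14 between fasted and 0 to 0 between refed genotypes. Fasting gave 23 to 27 calls in wild-type and 24 to 30 in WT/Y657* mice, and refeeding 16 to 21 and 17 to 19. Differences of the fasting response ranged from 3 (without 1 fasted or 1 fed wild-type mouse) to 9 (without 1 fasted WT/Y657* mouse). In 11 of 24 fits the count was below the reported one by more than 1.5-fold, and in none above it by as much. Differences of the refeeding response ranged from 1 (without any of 8 mice) to 4 (without 1 refed WT/Y657* mouse), with 8 of 24 fits below by that margin. Of the latter, *Bnip3* was lost in 16 fits and *Gabarapl2* in 8, and *Atg7* was lost in 14 for fasting. The causes were not tested. No paired analysis was possible because each mouse carried its own number and no number was shared between groups.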

Other observations

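Across the 8 roles, the ATG8 family and the cargo receptors had the highest medians on fasting, 0.37 and 0.32 on the log2 scale in wild-type and 0.58 and 0.21 in WT/Y657* mice. The ULK complex had the lowest, -0.38 and -0.56, over 4 genes. These medians are a description of 4 to 11 genes a role and were not tested against other genes.

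The 3 genes that DESeq2 called and edgeR did not in a difference of responses were *Tfeb* and *Map1lc3b* on fasting and *Sqstm1* on refeeding (0.30, DESeq2 adjusted p = 0.0481, edgeR adjusted p = 0.125).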
